A study of Mus musculus with 16 samples.

Results

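H3K27me3 was compared between wild-type (WT) CJ9 mouse embryonic stem cells that had been directed to endoderm and WT CJ9 cells that had been directed to mesoderm. The comparison used the broad peaks of the WT endoderm list, 10326 in number, and of the WT mesoderm list, 6150 in number, together 16476 of the 224510 peaks in the 12 lists of the series. The lists were chosen by mark and genotype alone, with 1 ChIP-seq library on each side. The study asked what Arid4b, a chromatin protein found with Sin3A and histone deacetylases, does in lineage commitment, and profiled H3K4me3, H3K27me3 and H3K27ac in WT and arid4b-delta cells (arid4b∆ in the labels). Cells of both genotypes were differentiated for 5 days and fixed in 1% formaldehyde for 8 min. The other groups used here are the H3K27ac and H3K4me3 lists of WT endoderm and WT mesoderm, and the H3K27me3 lists of arid4b-delta endoderm (16660 peaks) and arid4b-delta mesoderm (9863 peaks). The labels do not give the agents that directed the cells, the part of Arid4b that is deleted or whether a line is 1 clone. Each group is 1 library without a replicate, and therefore no p-value is given. A peak list holds no read totals, so depth is unknown. Shares are given with exact (Clopper-Pearson) 95% intervals, which take in counting error and no variation between cultures.

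H3K27me3 is placed by the Polycomb complex PRC2 and marks promoters of developmental regulators that are silent or held poised. In embryonic stem cells many of these promoters also carry H3K4me3, the mark of active and poised promoters, and such promoters are called bivalent. On differentiation a promoter that becomes active commonly exchanges H3K27me3 for H3K27ac, the mark of active promoters and enhancers, since the same lysine cannot carry both.

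The labels were checked at marker promoters, taken as 1000 bp either side of the gene start. Of 7 endoderm markers, 0 carried H3K27ac in WT endoderm and 0 in WT mesoderm, and the same 5 (Sox17, Foxa2, Gata6, Hhex and Cxcr4) carried H3K27me3 in both lineages. Of 8 mesoderm markers, 0 carried H3K27ac in WT endoderm and 3 (T, Tbx6 and Pdgfra) did in WT mesoderm. Of 5 pluripotency markers, 3 (Pou5f1, Nanog and Sox2) carried H3K27ac in WT endoderm and 2 (Pou5f1 and Sox2) in WT mesoderm. The 4 feeder fibroblast markers had H3K27ac in neither lineage. Arid4b itself (94246) had H3K27ac and H3K4me3 and no H3K27me3 at its promoter in both, and Pou5f1, Nanog, Otx2, Wnt3 and Gata4 also had no H3K27me3 at theirs. The start of Gata4 was not settled, and both ends of the gene were read. The endoderm label thus has no H3K27ac at its own defining markers, and "endoderm" below means the library labelled so. In a bulk library a mark carried by fewer cells and a weaker mark in every cell cannot be told apart, and peaks of 2 marks at 1 promoter need not come from the same cells.

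The promoters below carried H3K27me3 in one lineage and H3K27ac in the other. They are the 250 bases before the start that RefSeq gives on build GRCm38.p6 (mm10), 5′ to 3′ on the gene's strand, with CG dinucleotides, the feature of the CpG-rich promoters that Polycomb binds, in capitals. The first 4 had H3K27me3 in WT endoderm only and H3K27ac in WT mesoderm only: Dll1 (a Notch ligand, chr17:15376933-15377182, minus strand), Lef1 (a transcription factor of Wnt signalling, chr3:131110047-131110296, plus strand), Twist1 (a mesenchymal bHLH factor, chr12:33957421-33957670, plus strand) and Lfng (a glycosyltransferase that modifies Notch receptors, chr5:140607091-140607340, plus strand). The last 3 had H3K27me3 in WT mesoderm only and H3K27ac in WT endoderm only: Ocln (occludin, a tight junction protein, chr13:100552719-100552968, minus strand), Nodal (a TGF-beta ligand of germ layer induction, chr10:61417722-61417971, plus strand) and Fgf5 (an FGF ligand of the primed epiblast, chr5:98253934-98254183, plus strand).
Dll1: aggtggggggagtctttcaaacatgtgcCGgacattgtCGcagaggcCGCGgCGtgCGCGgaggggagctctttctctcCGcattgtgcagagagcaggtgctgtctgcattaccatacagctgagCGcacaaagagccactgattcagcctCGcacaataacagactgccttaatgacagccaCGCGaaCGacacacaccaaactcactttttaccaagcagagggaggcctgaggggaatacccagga
Lef1: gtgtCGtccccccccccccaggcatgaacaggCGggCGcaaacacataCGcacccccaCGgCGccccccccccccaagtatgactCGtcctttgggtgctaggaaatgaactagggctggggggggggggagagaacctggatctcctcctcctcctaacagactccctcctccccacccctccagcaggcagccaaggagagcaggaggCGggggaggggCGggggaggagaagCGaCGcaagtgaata
Twist1: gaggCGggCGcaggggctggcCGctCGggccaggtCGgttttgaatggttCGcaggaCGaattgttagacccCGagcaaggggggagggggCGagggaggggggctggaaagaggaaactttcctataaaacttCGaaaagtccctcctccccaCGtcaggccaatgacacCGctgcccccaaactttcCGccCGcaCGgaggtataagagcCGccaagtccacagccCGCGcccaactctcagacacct
Lfng: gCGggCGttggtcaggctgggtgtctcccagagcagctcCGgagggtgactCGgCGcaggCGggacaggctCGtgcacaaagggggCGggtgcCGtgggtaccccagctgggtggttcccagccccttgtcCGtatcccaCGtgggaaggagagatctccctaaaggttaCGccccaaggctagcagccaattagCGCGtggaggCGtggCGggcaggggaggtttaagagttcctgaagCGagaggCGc
Ocln: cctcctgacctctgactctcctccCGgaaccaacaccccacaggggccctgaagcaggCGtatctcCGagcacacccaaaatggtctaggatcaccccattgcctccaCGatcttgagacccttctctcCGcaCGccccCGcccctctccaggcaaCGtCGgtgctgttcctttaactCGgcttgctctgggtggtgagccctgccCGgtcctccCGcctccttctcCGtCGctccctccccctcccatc
Nodal: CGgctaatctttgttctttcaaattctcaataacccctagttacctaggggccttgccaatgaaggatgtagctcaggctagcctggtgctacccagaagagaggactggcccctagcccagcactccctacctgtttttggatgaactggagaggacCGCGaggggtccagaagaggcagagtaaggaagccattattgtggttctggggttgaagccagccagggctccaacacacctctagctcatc
Fgf5: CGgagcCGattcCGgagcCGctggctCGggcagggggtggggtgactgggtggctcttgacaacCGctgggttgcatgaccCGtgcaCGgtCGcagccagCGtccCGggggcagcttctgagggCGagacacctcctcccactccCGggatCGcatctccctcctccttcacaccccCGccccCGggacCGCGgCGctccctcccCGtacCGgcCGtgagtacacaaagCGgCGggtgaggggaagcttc
The 7 sequences held 3 (Nodal) to 24 (Fgf5) CG dinucleotides, against a median of 10 (middle 50% of promoters 3 to 19) over the 15136 promoters with a tabulated sequence. The endoderm peak covered all 250 bases at Dll1, Twist1 and Lfng and 0 at Lef1, where it ended 304 bp from the start. The mesoderm peak covered 189 of the 250 bases at Nodal, 116 at Fgf5 and 0 at Ocln, where it began 72 bp inside the gene. The core letters of 3 motif families were looked for on both strands, and none of the 7 sequences held one. The Fox core TGTTTAC is found in 2.62% of the same windows of all tabulated promoters. The Gata core, AGATAA, is found in 9.30% of them. The T-box core, AGGTGTGA, is found in 1.04% of them.

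WT endoderm had more H3K27me3 peaks and more of them were long. On chromosomes 1 to 19, X and Y, peaks covered 14.1 Mb in WT endoderm and 6.85 Mb in WT mesoderm, 2.05 times as much. The median peak was 542 bp long in endoderm and 583 bp in mesoderm, and the shortest was 146 bp in both. Many peaks were weak calls: the median −log10 q from the authors' peak caller was 1.63 in endoderm and 1.08 in mesoderm. It was at least 2 for 42.7% of endoderm peaks and 20.2% of mesoderm peaks. Peaks over 5 kb numbered 480 and held 5.33 Mb in endoderm, against 145 and 1.37 Mb in mesoderm. The shared 5.56 Mb made up 39.6% of the endoderm coverage and 81.2% of the mesoderm coverage. Coverage in endoderm only came to 8.50 Mb, of which 4.45 Mb lay in peaks that also overlapped a mesoderm peak and 4.05 Mb in peaks that did not. Coverage in mesoderm only came to 1.29 Mb, with 0.415 Mb in peaks that overlapped an endoderm peak and 0.876 Mb in peaks that did not. Most of the mesoderm coverage thus lay inside the endoderm coverage. Of the mesoderm peaks that overlapped an endoderm peak, 67.2% lay wholly inside endoderm peaks, against 6.15% the other way, and 561 endoderm peaks (18.4% of those that overlapped) each spanned at least 2 mesoderm peaks, up to 27.

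**Figure D1:**
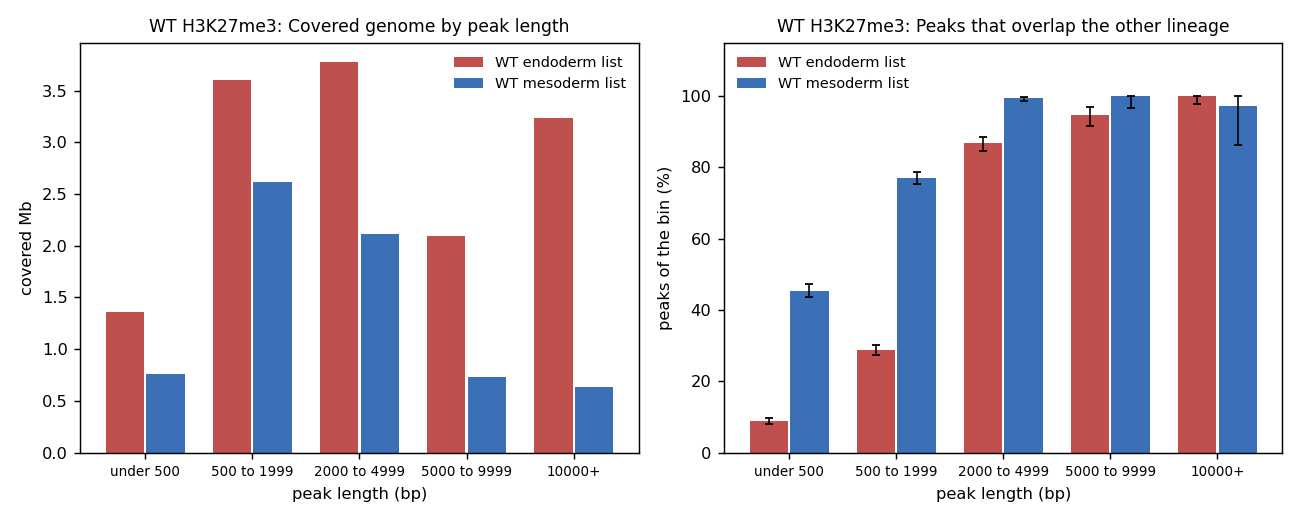
Covered Mb (left) and the percentage of peaks that share at least 1 bp with the other lineage (right) by peak length in bp, for the WT endoderm and the WT mesoderm H3K27me3 lists, 1 library each. Error lines are exact 95% intervals; peaks of 10 kb and more cover 3.24 Mb in endoderm against 0.636 Mb in mesoderm, and the shared percentage is lowest for the shortest peaks of both lists.

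Whether a peak was shared differed with its length. Peaks with no overlap in the other lineage numbered 7240 in endoderm (70.3%, 95% interval 69.4 to 71.2) and 2039 in mesoderm (33.2%, 32.1 to 34.4). They were short, with a median length of 421 bp in endoderm against 1994 bp for shared endoderm peaks, and 357 bp in mesoderm against 882 bp for shared mesoderm peaks. Under 500 bp, 8.93% of endoderm peaks and 45.5% of mesoderm peaks were shared, and at 2 to 5 kb 86.8% and 99.4% were. All 173 endoderm peaks of 10 kb and more were shared, as were 37 of 38 mesoderm peaks. Peaks in one lineage only lay within 2500 bp of a gene start in 24.0% of cases in endoderm and 19.8% in mesoderm, against 61.5% and 54.0% of shared peaks. They overlapped an H3K4me3 peak of the same cells in 14.0% of cases in endoderm and 9.76% in mesoderm, against 53.3% and 48.7% of shared peaks. Peaks in one lineage only were therefore the shorter ones, mostly away from gene starts and without H3K4me3. All of these were scored by overlap or distance, which a longer peak meets more readily. In endoderm 18.6% of peaks under 500 bp lay within 2500 bp of a gene start, against 88.4% of those of 10 kb and more. Peaks were not matched for length, so differences beyond length were not tested.

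Promoters followed the coverage. Over 21883 protein-coding genes, 2954 promoters (13.5%) overlapped an H3K27me3 peak in WT endoderm and 1901 (8.69%) in WT mesoderm. Both lineages shared 1702 (7.78%), which is 57.6% of the endoderm promoters and 89.5% of the mesoderm promoters. In endoderm only there were 1252 (5.72%), and in mesoderm only 199 (0.909%), so that 86.3% (95% interval 84.4 to 88.0) of the promoters that differed were marked in endoderm. Cutting the endoderm list to its 6150 peaks of highest fold enrichment, the length of the mesoderm list, left 780 (3.56%) in endoderm only and 686 (3.13%) in mesoderm only, a share of 53.2% (50.6 to 55.8), with 1215 (5.55%) in both and 19202 (87.7%) in neither. Of these 686, 487 (71.0%) were marked by endoderm peaks further down the full list. No such count can be made for the 780 endoderm promoters, since the mesoderm list was not cut. Cutting the endoderm list further, to the covered length of the mesoderm list (4344 peaks against 6134), turned the share to 33.9%. The direction in the totals therefore depends on how many of the endoderm peaks are kept. A rule used to choose genes to name asked for 1 of the first 6150 peaks of a gene's own lineage and no peak of the other full list within 5000 bp. It kept 637 promoters in endoderm (2.91%) and 148 in mesoderm (0.676%), and these counts carry the same imbalance, since the longer endoderm list removes more mesoderm promoters than the reverse.

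Many promoters in one lineage only were far from any peak of the other. The nearest mesoderm peak lay beyond 50 kb for 836 (66.8%) of the 1252 endoderm promoters and past the 1000 bp window but within 2500 bp for 177 (14.1%). The nearest endoderm peak lay beyond 50 kb for 110 (55.3%) of the 199 mesoderm promoters and past the window but within 2500 bp for 45 (22.6%). The same shares over all promoters were not counted, so these distances have no background beside them. The 2 classes cannot be compared in distance either, since the endoderm list holds more peaks (10297 against 6134 on these chromosomes). The covered length within 5000 bp of the start had a median of 812.5 bp at endoderm-only promoters and 482 bp at mesoderm-only promoters. At the 1702 promoters marked in both lineages the median was 2926 bp in endoderm and 1490 bp in mesoderm. At these, endoderm had the larger covered length at 1513 (88.9%), mesoderm at 174 (10.2%), and 15 (0.881%) were equal. Endoderm peaks covered 2.05 times as much of the genome, and these counts were not repeated in lists of equal length.

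Genes of 28 lists (706 genes found) were set beside all genes. Besides genes of development, the lists hold potassium channel, housekeeping, imprinted, matrix, Polycomb subunit, cell cycle and fibroblast genes. Of the listed genes 97 (13.7%) were marked in endoderm only and 16 (2.27%) in mesoderm only, against 5.72% and 0.909% of all genes. In both lineages 298 (42.2%) were marked, against 7.78% of all genes. Listed genes were marked more often in each lineage, 395 of 706 in endoderm and 314 in mesoderm, against 2954 and 1901 of 21883. Their higher shares in one lineage only are therefore not read as a lineage difference. In lists of equal length the numbers were 71 and 72. Streak and mesendoderm genes (27) had 8 in endoderm only, 2 in mesoderm only and 9 in both, and 5 and 4 in lists of equal length. The Wnt list (48) had 11 in endoderm only, 1 in mesoderm only and 22 in both, and 8 and 6 at equal length. Hedgehog and retinoic acid genes (27) had 7, 0 and 7, and 6 and 2 at equal length, and Notch genes (23) had 5, 0 and 9, and 4 and 2. These lists had more members in endoderm only than in mesoderm only under both rules, as did all genes (780 and 686 at equal length). The differences at equal length are small, and 7 of the 28 lists turned their direction there. No trait of these pathways is therefore read from them. The EMT and adhesion list (34) had 8 in endoderm only and 6 in mesoderm only, the highest number in mesoderm of any list, and 8 and 8 at equal length. Of the definitive endoderm factors (28), 17 were marked in both lineages, 2 in endoderm only (Krt19 and Isl1) and 1 in mesoderm only (Cldn6). Of the 39 Hox genes, 37 were marked in both and 2 in endoderm only, and none of the 20 housekeeping genes was marked in either.

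**Figure D2:**
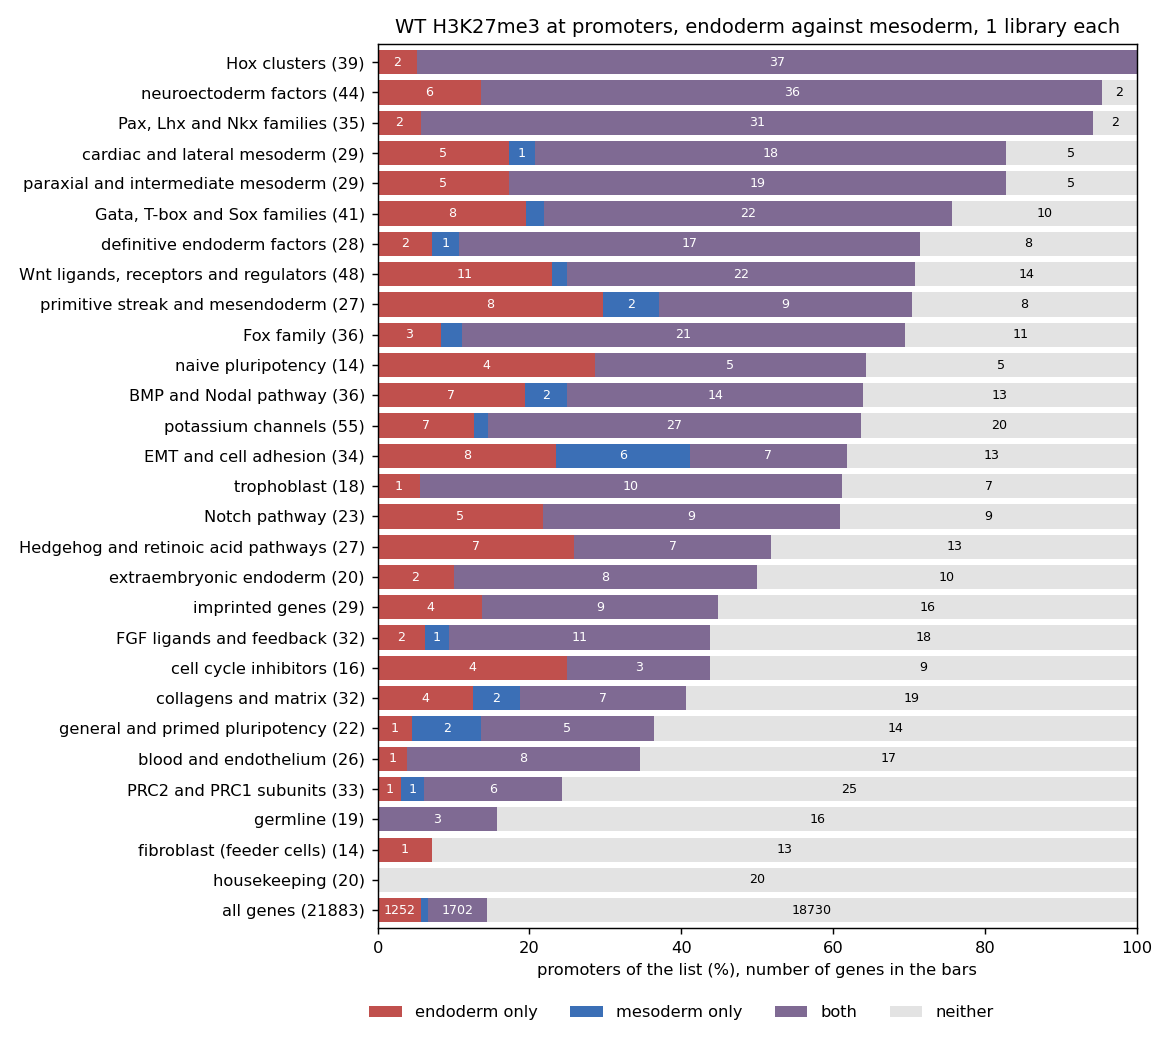
Percentage of promoters in each of 28 gene lists, and of all genes, with a WT H3K27me3 peak in endoderm only, mesoderm only, both or neither, with 1 library on each side; numbers in the bars are genes and numbers in brackets are list sizes. The Hox list is almost all shared (37 of 39), the streak list has the highest share in endoderm only (8 of 27) and the EMT and adhesion list the highest in mesoderm only (6 of 34).

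Among primitive streak factors, the T-box gene T (brachyury, 20997, chr17:8434423-8442496) had 7243 bp covered within 5000 bp of its start in WT endoderm and 653 bp in WT mesoderm. Its endoderm peak, chr17:8430821-8437309, spanned the start, whereas the nearest mesoderm peak lay 1266 bp from it. Mesp1, a bHLH factor of cardiac progenitors, had 2874 bp in endoderm and 884 bp in mesoderm. Mixl1, a homeobox factor of mesendoderm, had 872 bp in endoderm and 0 in mesoderm. Sp5 and Sp8, zinc finger factors downstream of Wnt, had 9126 and 9032 bp in endoderm, against 1190 and 2362 bp in mesoderm. Evx1, a homeobox factor of the streak, had 10001 bp in endoderm, the whole window, and 557 bp in mesoderm. The endoderm peaks of T and Mixl1 ranked 8200 and 8542 by fold, outside the first 6150, so both calls are lost in lists of equal length. Their −log10 q was 1.49 and 0.630. Eomes and Gsc were marked in both lineages, with 3839 and 7145 bp in endoderm, against 1531 and 6350 bp in mesoderm.

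Among Notch genes, which time somite segmentation in the presomitic mesoderm, the ligand gene Dll1 (13388, chr17:15367354-15376932) had 8040 bp covered in endoderm and 0 in mesoderm, with the nearest mesoderm peak 158848 bp away. Lfng had 4858 bp in endoderm and 0 in mesoderm, and its only endoderm peak, chr5:140605007-140609864, spanned the start. The receptor gene Notch1 had 365 bp in endoderm and 0 in mesoderm. All 3 were also in endoderm only in lists of equal length. The targets Hes7, an oscillating repressor, and Hey1 had 6906 and 1543 bp in endoderm, against 2053 and 587 bp in mesoderm. The segmentation regulator Ripply2 had 2497 bp in endoderm and 0 in mesoderm. Mesp2 and Tbx6, which act in the same tissue, had only 180 and 187 bp in endoderm and 0 in mesoderm. These short peaks are close to the 146 bp minimum of the list, and Hey1 and Tbx6 lose their call in lists of equal length.

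In the Wnt pathway the ligand gene Wnt5a had 5669 bp covered in endoderm and 0 in mesoderm, where the nearest peak was 5245 bp away. Its endoderm peak ranked 7683 by fold and is lost in lists of equal length. The transcription factor gene Lef1 (16842, chr3:131110297-131224357) had 6082 bp in endoderm and 0 in mesoderm. The secreted inhibitor genes Dkk1 and Frzb had 2334 and 1638 bp in endoderm and 0 in mesoderm. The receptor genes Fzd10 and Fzd1 had 1978 and 2524 bp in endoderm, against 0 and 846 bp in mesoderm, and Fzd1 loses its call in lists of equal length. Fzd8, another receptor gene, was the one Wnt list member in mesoderm only, with 146 bp in endoderm and 1384 bp in mesoderm. Ligand, receptor, inhibitor and effector genes were all among those in endoderm only.

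The BMP and Nodal list (36) had 7 genes in endoderm only, 2 in mesoderm only and 14 in both, and the direction was the other way in lists of equal length, with 4 and 7. The ligand genes Bmp4 and Bmp7 had 5903 and 4715 bp in endoderm, against 485 and 584 bp in mesoderm. The target genes Id1, Id2 and Id3, inhibitors of bHLH factors, had 2595, 2792 and 2211 bp in endoderm and 0 in mesoderm. Fst, an antagonist of activin, had 1947 bp in endoderm and 0 in mesoderm. Nodal and Lefty1, the ligand and its feedback inhibitor, were the 2 members in the other direction. Id1 and Bmp7 were marked by 1 of the first 6150 endoderm peaks, and Bmp4, Id2 and Id3 were not.

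Retinoic acid and Hedgehog genes in endoderm only included Aldh1a2, which encodes a retinoic acid synthesising enzyme, with 2970 bp in endoderm and 0 in mesoderm. The retinoic acid binding proteins Crabp1 and Crabp2 had 4706 and 1456 bp in endoderm and 0 in mesoderm, and Crabp1, at rank 6168 by fold, loses its call in lists of equal length. The Hedgehog coreceptors Boc and Gas1 had 2128 and 1595 bp in endoderm and 0 in mesoderm. No gene of this list was marked in mesoderm only. Of mesenchymal genes, Twist1 had 5129 bp in endoderm and 0 in mesoderm, and Snai2, a zinc finger repressor of E-cadherin, 1351 bp and 0. Vim (vimentin) had 1286 bp in endoderm and 0 in mesoderm, and Cdh2 (N-cadherin) had 4192 bp in endoderm and 329 bp in mesoderm. The neural factors Zic1 and Zic4, neighbours that share 1 peak (chr9:91356401-91366109), had 9362 bp each in endoderm and 0 in mesoderm. Outside the lists, Meis2, a homeobox cofactor, had 7404 bp in endoderm and 0 in mesoderm. Nrp2, a neuropilin receptor, had 6164 bp in endoderm and 0 in mesoderm, and Cdk6, a cyclin-dependent kinase, 4825 bp and 0.

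The naming rule, which favours the longer endoderm list, kept 41 listed genes in endoderm and 10 in mesoderm, against 71 and 72 listed genes in one lineage only in lists of equal length. The covered length was 150 to 9362 bp (median 1490 bp) in endoderm at the 41 and 146 to 2854 bp (median 211 bp) in mesoderm at the 10, so the ranges overlap. Lefty1 (13590, chr1:180935022-180938401) had 0 bp in endoderm and 1780 bp in mesoderm, in 1 peak over the start. Nodal had 0 bp in endoderm and 482 bp in mesoderm, in 2 peaks either side of the start. Fgf5 had 0 bp in endoderm and 228 bp in mesoderm. All 3 are known from the early epiblast and streak. The naming rule, which all 3 passed, itself asks for no endoderm peak within 5000 bp. Among epithelial genes, Ocln had 0 bp in endoderm and 1177 bp in mesoderm. Epcam, an epithelial adhesion molecule, and Spint1, a protease inhibitor of epithelia, had 0 bp in endoderm and 146 and 162 bp in mesoderm, which is at or near the 146 bp minimum. Cldn6, a claudin, and Grhl2, an epithelial transcription factor, had 573 and 710 bp in endoderm, outside the promoter window, against 1372 and 843 bp in mesoderm. Tbx20, a cardiac T-box factor, had 0 bp in endoderm and 2854 bp in mesoderm. Outside the lists Pcdh8, a protocadherin of paraxial mesoderm, had 0 bp in endoderm and 1860 bp in mesoderm. Some of these mesoderm peaks were weak calls. The −log10 q of the highest-fold promoter peak was 0.974 at Lefty1, 0.773 at Epcam, 0.561 at Spint1 and 0.862 at Pcdh8. It was 0.834 at Cldn6 and 1.56 at Grhl2. At Ocln, Nodal, Fgf5 and Tbx20 it was 2.61, 4.32, 4.17 and 6.69.

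**Figure D3:**
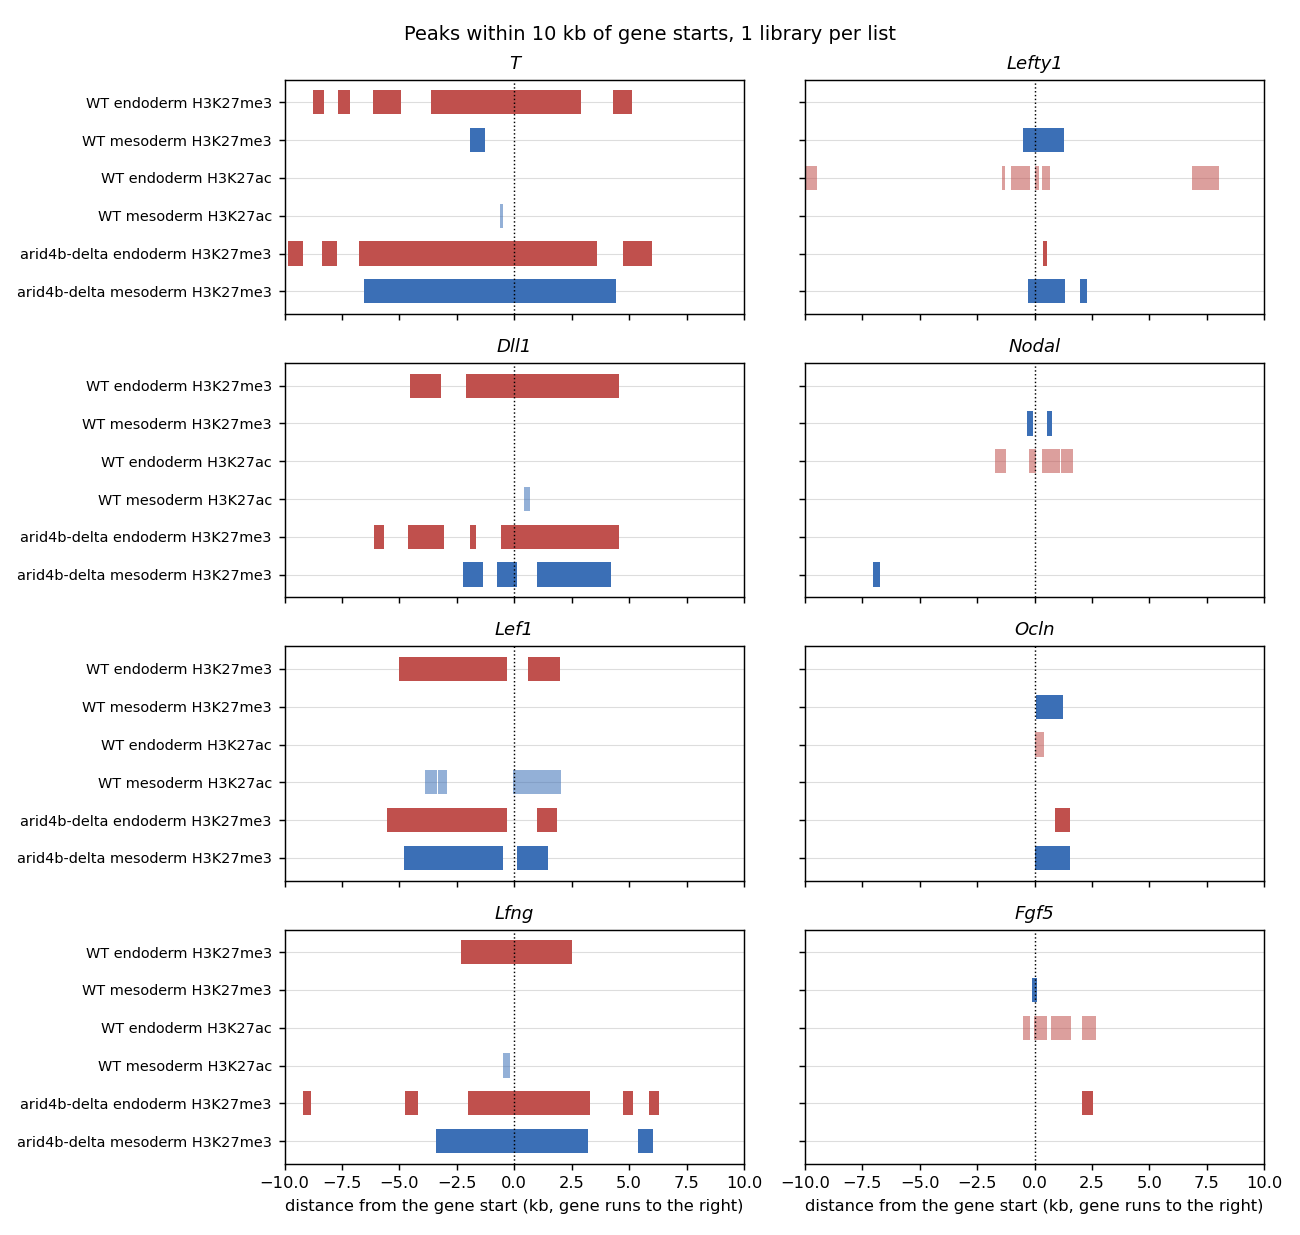
Peaks within 10 kb of the start of 8 genes by distance from the start in kb, with a row for each list (WT H3K27me3, WT H3K27ac and arid4b-delta H3K27me3, endoderm above mesoderm in each pair, 1 library per list). In the left column H3K27me3 covers 4858 to 8040 bp within 5 kb of the start in WT endoderm and at most 653 bp in WT mesoderm. In the right column it is present in WT mesoderm and absent in WT endoderm.

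Among promoters of genes with full symbols marked in both lineages, the 10 with the largest excess in endoderm included 3 Hox genes. Msx2, a homeobox factor, had 9191 bp in endoderm and 816 bp in mesoderm. Cdx2, a posterior and trophoblast homeobox factor, had 10001 bp in endoderm and 3018 bp in mesoderm. Pdgfra, a growth factor receptor of mesoderm, had 8283 bp in endoderm and 1334 bp in mesoderm. Onecut1, Emx2, Hoxa2, Hoxa4, Hoxb2, Rgma and Foxb1 made up the rest. The largest excess in mesoderm was smaller: 1543 bp in endoderm and 3492 bp in mesoderm at Ccdc184. Both orders rest on full lists, in which endoderm peaks covered 2.05 times as much of the genome. Utf1, known from undifferentiated stem cells, had 832 bp in endoderm and 2533 bp in mesoderm, with H3K27ac in endoderm only.

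The Hoxb, Hoxc and Hoxd clusters, long H3K27me3 domains of developmental genes, were covered by fewer and longer peaks in endoderm and in pieces in mesoderm. At Hoxb (chr11:96194316-96368254) 12 peaks covered 73.6% of the cluster in endoderm and 30 peaks 43.9% in mesoderm. At Hoxc (chr15:102921131-103036856) 3 peaks covered 98.1% in endoderm and 19 peaks 77.9% in mesoderm. At Hoxd (chr2:74668225-74765142) 5 peaks covered 93.8% in endoderm and 22 peaks 59.8% in mesoderm. In mesoderm the genes at the 3′ end of Hoxb and Hoxd, which in embryos are switched on first, had the least covered length within 5000 bp of the start. Hoxb1 had 6281 bp in endoderm and 394 bp in mesoderm, and Hoxd1 had 7251 bp in endoderm and 861 bp in mesoderm. Genes further along such as Hoxb9 and Hoxc9 had the whole 10001 bp in both lineages. In arid4b-delta cells coverage was 76.2% in endoderm and 74.5% in mesoderm for Hoxb, 99.2% and 96.9% for Hoxc and 95.9% and 95.8% for Hoxd.

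**Figure D4:**
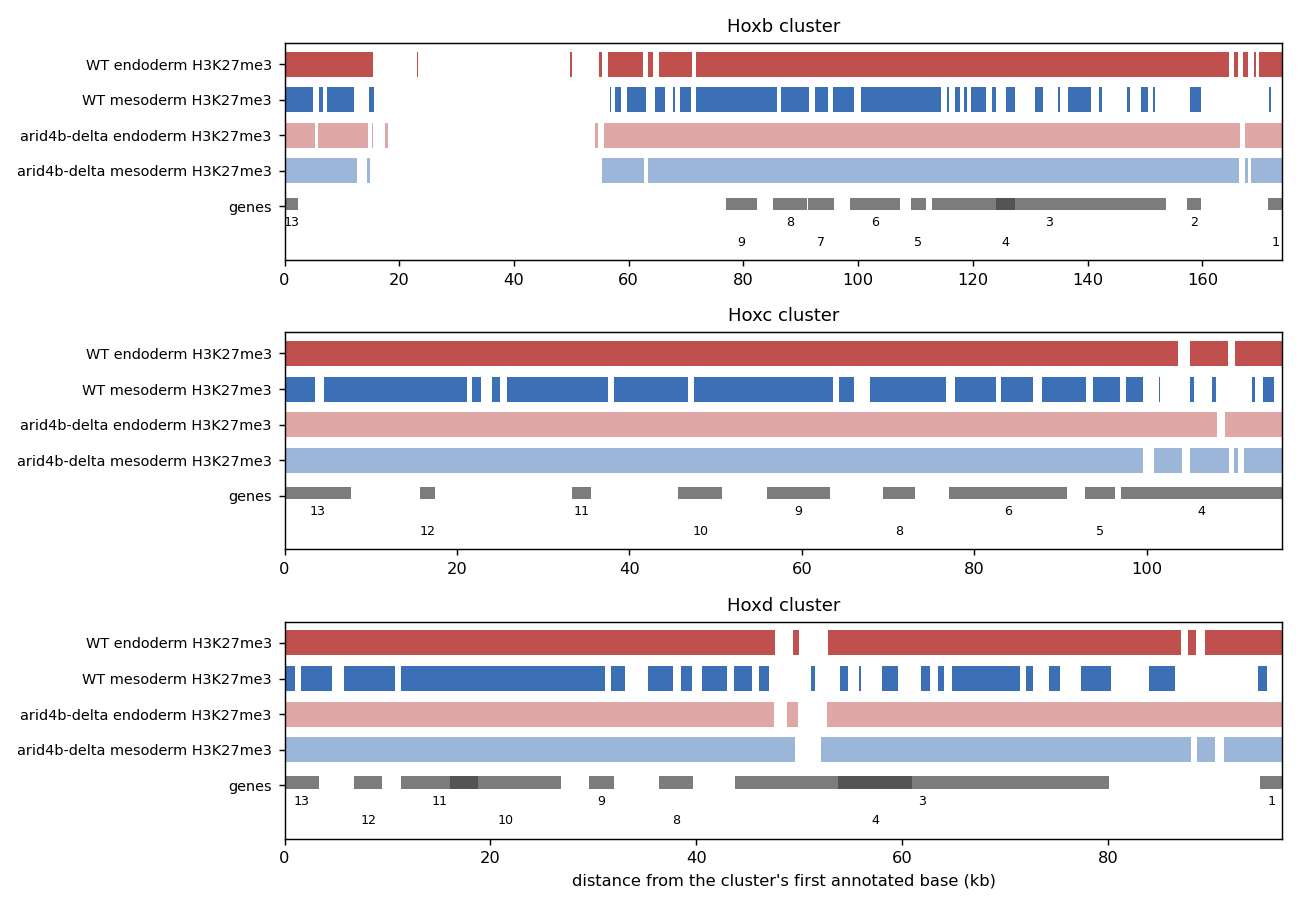
H3K27me3 peaks over the Hoxb, Hoxc and Hoxd clusters by distance in kb from the first annotated base of each cluster, with rows for WT endoderm, WT mesoderm, arid4b-delta endoderm and arid4b-delta mesoderm (1 library each) and grey bars for annotated genes, labelled by their number. Hoxd is covered to 93.8% by 5 peaks in WT endoderm and to 59.8% by 22 peaks in WT mesoderm.

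H3K27ac, which took no part in choosing the classes, differed between them. At endoderm-only H3K27me3 promoters H3K27ac was present at 14.0% (95% interval 12.1 to 16.0) in WT endoderm and 22.2% (19.9 to 24.6) in WT mesoderm. At mesoderm-only H3K27me3 promoters it was present at 18.1% (13.0 to 24.2) in WT endoderm and 14.1% (9.56 to 19.7) in WT mesoderm. Over all promoters it was 25.5% in endoderm and 28.5% in mesoderm, and at promoters with H3K27me3 in both lineages 3.70% and 6.05%. Where H3K27ac itself differed, 24 of the endoderm-only promoters had it in endoderm only and 127 in mesoderm only, so 15.9% (10.5 to 22.7) had it in endoderm. Of the mesoderm-only promoters 22 had it in endoderm only and 14 in mesoderm only, or 61.1% (43.5 to 76.9) in endoderm. Over all promoters 704 (3.22%) had it in endoderm only and 1358 (6.21%) in mesoderm only, or 34.1% (32.1 to 36.2) in endoderm. In both classes H3K27ac was more frequent in the lineage without H3K27me3. In lists of equal length 11 endoderm-only promoters had H3K27ac in endoderm only and 81 in mesoderm only (95% interval of the endoderm share 6.12 to 20.4%). The numbers at mesoderm-only promoters were then 26 and 30, or 46.4% (33.0 to 60.3) in endoderm, so that order is not kept for the mesoderm class.

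With full lists, all listed genes in which both marks differed had them in opposite lineages. With H3K27me3 in endoderm only and H3K27ac in mesoderm only there were 20 listed genes: T, Tbx6, Mesp2, Dll1, Lfng, Notch1, Hes7, Hey1, Lef1, Wnt5a, Frzb, Fzd1, Bmp7, Fst, Twist1, Cdh2, Vim, Meis1, Sox13 and Irx3. With H3K27me3 in mesoderm only and H3K27ac in endoderm only there were 8: Nodal, Lefty1, Fgf5, Ocln, Cldn6, Grhl2, Fzd8 and Snai3. No listed gene had both marks in endoderm only, or both in mesoderm only, as 24 and 14 of all promoters had. Over all promoters 127 and 22 had the marks in opposite lineages, of which 20 and 8 were listed. The lists were chosen with earlier results of these data known, so the pattern at listed genes is no independent support and is not read as a general one. T, Tbx6, Hey1, Wnt5a and Fzd1 lose their H3K27me3 call in lists of equal length. Listed genes in mesoderm only then number 72 and not 16, and the 2 marks were not compared at them. H3K4me3 was present at 72.3% of endoderm-only promoters in endoderm and 78.8% in mesoderm, and at 71.4% and 73.9% of mesoderm-only promoters, against 52.5% and 55.1% of all promoters. Over all promoters 106 (0.484%) had H3K4me3 in endoderm only and 674 (3.08%) in mesoderm only. At promoters with H3K27me3 in both lineages H3K4me3 was present at 68.4% in endoderm and 83.6% in mesoderm. The most frequent state of an endoderm-only promoter in endoderm was H3K4me3 with H3K27me3 and without H3K27ac (730 of 1252, 58.3%), and 711 (56.8%) of these promoters had H3K4me3 without H3K27ac in mesoderm.

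**Figure D5:**
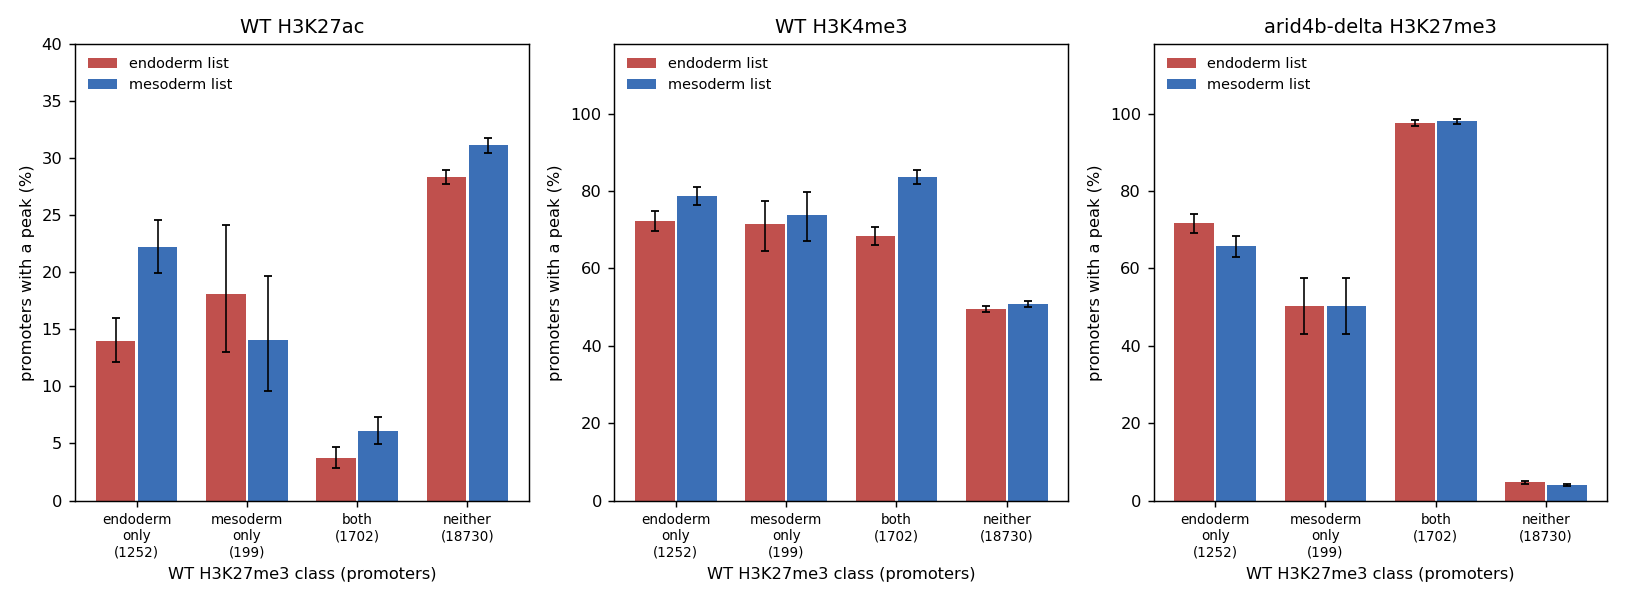
Percentage of promoters with a WT H3K27ac peak (left), a WT H3K4me3 peak (middle) or an arid4b-delta H3K27me3 peak (right) in each class of WT H3K27me3 promoters, with the endoderm list left of the mesoderm list, 1 library each; error lines are exact 95% intervals and numbers in brackets are promoters. At endoderm-only promoters H3K27ac is present at 14.0% in endoderm and 22.2% in mesoderm, and arid4b-delta H3K27me3 at 71.6% in endoderm and 65.7% in mesoderm.

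In arid4b-delta cells most endoderm-only promoters carried H3K27me3 in both lineages. Of the 1252 WT endoderm-only promoters, 897 (71.6%) were marked in arid4b-delta endoderm and 823 (65.7%) in arid4b-delta mesoderm, against 16.1% and 15.3% of all promoters. Over all promoters 640 (2.92%) were marked in arid4b-delta endoderm only and 460 (2.10%) in arid4b-delta mesoderm only. Of the 1252, both arid4b-delta lineages marked 759, endoderm only 138, mesoderm only 64 and neither 291. Of the 199 WT mesoderm-only promoters, 100 (50.3%) were marked in each arid4b-delta lineage, 71 in both, 29 in endoderm only, 29 in mesoderm only and 70 in neither. Of the 97 listed endoderm-only genes, 86 were marked in both arid4b-delta lineages, 3 (Hes7, Fbln2 and Foxp1) in endoderm only, 2 (Sfrp2 and Cdh3) in mesoderm only and 6 in neither. At T the covered length was 8899 bp in arid4b-delta endoderm and 9451 bp in arid4b-delta mesoderm, and at Lef1 5567 and 5634 bp. Of the 16 listed mesoderm-only genes, 7 (Nodal, Fgf5, Epcam, Spint1, Cldn6, Grhl2 and Snai3) were marked in neither arid4b-delta lineage. At T, Dll1, Lef1 and Lfng the promoter was called in WT endoderm, arid4b-delta endoderm and arid4b-delta mesoderm, and not in WT mesoderm. The number of peaks in the arid4b-delta lists is higher than in the WT lists, and its part in these counts was not tested.

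The longest endoderm peaks with no mesoderm overlap lay near Robo3, Islr2, Zic1, Sall3, Barx2, Meis2, B3gnt9, Rasgrf1, Dll1 and Pth1r, at 9923 to 6643 bp. Those near Robo3, Islr2, Zic1, Barx2, Rasgrf1 and Pth1r lie on chromosome 9. Only 1 mesoderm peak without endoderm overlap exceeded 5 kb: chr9:3000008-3038321, 38314 bp with a fold enrichment of 1.01, with no peak over it in the other 3 H3K27me3 lists. Of 180 mesoderm peaks on chromosome 9, 90 (50%) had a fold under 1.3 with a −log10 q of at least 2, as did 70 of 376 (18.6%) endoderm peaks, against at most 3.70% on any other chromosome in either list. In the arid4b-delta lists it was 0.438% in endoderm and 0.469% in mesoderm, and whether this had a part in any result was not tested beyond leaving the chromosome out. Without chromosome 9 the share of differing promoters in endoderm was 86.1%. On chromosome 9 itself 79 promoters were in endoderm only and 54 in both, against 1252 and 1702 over all chromosomes. Zic1, Zic4, Aldh1a2, Crabp1 and Ripply2, named above in endoderm only, lie there, so their lack of a mesoderm peak carries this limit. The chromosome 9 peaks near Robo3 and Barx2 in endoderm, with folds of 1.03 and 1.03, and those of Tbx20 and Adamts8 in mesoderm, with folds of 1.19 and 1.01, are among those with low folds. The ratio of covered length, endoderm over mesoderm, was 3.55 on chromosome X and 1.73 to 2.59 on the autosomes.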

How the data were processed

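ChIP-seq was made for 3 histone marks in 2 genotypes and 2 lineages, 12 peak lists in all, and 4 input DNA samples were not used here. Peaks were called per library by the authors; the submitters' processing notes name Bowtie2, Picard and MACS2 with build mm10, without roles, versions or settings. The H3K27me3 lists are broad peaks, and the H3K4me3 and H3K27ac lists are narrow peaks. The lists as deposited give per peak a score, a fold enrichment ratio, and −log10 p and −log10 q values from the authors' peak caller. The narrow lists as deposited also give the summit position in bp. The folds are the authors' own, and were used only to rank peaks within a list. A list without read totals limits every absence to "no peak called".

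Overlaps were computed in Python 3.11.15 with pandas 2.3.3, numpy 2.4.6, scipy 1.17.1 and matplotlib 3.10.9, on chromosomes 1 to 19, X and Y, and checked on simulated intervals. A gene start was the 5′ end by strand (17491 of 21883 RefSeq genes of GRCm38.p6). For 2644 of the 4392 genes without a strand it was the gene end with more H3K4me3 over the 4 H3K4me3 lists. For the other 1748 the ends were tied, so both were used, and a peak at either end marked the promoter. A promoter was 1000 bp either side, marked by a peak with at least 1 bp in it. Lists of equal length kept the 6150 peaks of highest fold. Promoter sequences were found for 69.2% of genes, under the 80% set as a minimum, so a comparison of sequence features between the classes is void and is not given.

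The members and gene lists were chosen with earlier results of these data known; 706 of 708 distinct listed genes were found. Named genes were fixed markers, then, per direction, up to 25 listed and 10 other genes by the rule on first peaks and distance in order of covered length, 10 genes marked in both with the largest difference, and the 10 longest peaks in one list. Genes listed by class or mark are complete sets. Sp5, Sp8, Evx1, Mesp2, Notch1, Hes7, Hey1, Wnt5a, Fzd1, Fzd8, Bmp7, Id2, Id3, Crabp1, Vim, Cdh2, Cldn6, Grhl2 and the Hox genes given singly were chosen after their values were seen. With 1 library per group no test was run. A few items that the naming rule covers are not reported here.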

Additional observations from a re-analysis of the deposited data

Results flagged for a closer look

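Peaks on contigs other than chromosomes 1 to 19, X and Y were left out of every comparison. There were 29 such H3K27me3 peaks in WT endoderm, on 8 contigs with 62.3 kb, and 16 in WT mesoderm, on 4 contigs with 54.9 kb. Both lists had peaks on 4 of these contigs.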

How the results depend on the processing

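The direction of the totals depended on how the lists were cut, and neither depth nor replicate error is known from peak lists. With full lists 1252 promoters were in endoderm only and 199 in mesoderm only, and 86.3% of those that differed were in endoderm. Over 17 settings this share was above 50% in 16 and lay between 33.9% and 90.4%. With lists of equal length by fold there were 780 and 686 promoters, a share of 53.2%, 66.9% and 52.9% of peaks without overlap, and 5.601 and 2.486 Mb in one lineage only. With lists of equal covered length by fold (4344 and 6134 peaks) there were 548 and 1070, a reversed share of 33.9%, 67.9% and 67.7%, and 3.85 and 3.85 Mb. With the upper 50% of each list by fold, mesoderm had 404 promoters, the share was 71.5%, and 78.9% and 53.2% of peaks had no overlap. With −log10 q of at least 2, 89.6% and 54.3% of peaks had none, and mesoderm had 0.595 Mb. With peaks of at least 500 bp mesoderm had 127 promoters, a share of 89.3%, and 61.4% and 20.5% of peaks. Asking for 500 bp of the window gave 107 and 90.4%. Peaks without overlap were 83.6% and 38.8% when 50% had to be covered, 65.0% and 27.01% when a peak within 1000 bp counted, and 67.2% and 37.1% after joining across 3000 bp. Of 4 alternatives chosen after seeing the data, equal length by −log10 q gave 792 and 673 promoters, 54.1%, 66.3% and 52.2% of peaks, and 2.44 Mb in mesoderm. Equal length by peak length gave 78.1%, and 56.1% and 38.9% of peaks. Leaving out chromosome 9 and using every tabulated start moved none of these values beyond their interval or 1.5 times. In lists of equal length by fold, 7 of the 28 gene lists turned their direction (endoderm-only minus mesoderm-only promoters): cardiac and lateral mesoderm to -1, BMP and Nodal to -3, FGF to -3, Fox to -5, Pax, Lhx and Nkx to -2, imprinted genes to -2 and potassium channels to -3. Beyond the lengths of the lists, the cause was not tested. No paired analysis was possible because the labels carry no replicate numbers and each group is 1 library.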

Other observations

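Of 14 genes of naive pluripotency 4 (Tfcp2l1, Klf5, Tet2 and Nr0b1) were marked in endoderm only and 0 in mesoderm only, with 2 and 1 in lists of equal length, where Klf5 and Tet2 lose their call. Of 16 cell cycle inhibitors and cyclins 4 were marked in endoderm only (Cdkn2b and Cdkn2c, which encode inhibitors of cyclin-dependent kinases, and the D cyclin genes Ccnd1 and Ccnd2) and 0 in mesoderm only, with 2 and 0 in lists of equal length. Of 33 subunits of PRC2 and PRC1, Cbx2 was marked in endoderm only, with 1366 bp in endoderm and 0 in mesoderm, and Phc2 in mesoderm only, with 0 bp in endoderm and 146 bp in mesoderm. Of 29 imprinted genes 4 (Igf2, Peg10, Sgce and Magel2) were in endoderm only and 9 in both, and the direction was the other way in lists of equal length, with 2 and 4. Of 55 potassium channel genes 7 were in endoderm only, 1 in mesoderm only and 27 in both, with 4 and 7 in lists of equal length.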
